A study of Mus musculus with 9 samples.

Results

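Cells reprogrammed inside the adult mouse pancreas were compared with the exocrine tissue around the islets, on 6 of the 9 Illumina bead arrays of the study, 3 of induced cells and 3 of non-islet cells. The 6 arrays were taken by their titles. The induced samples were GFP-positive cells sorted from the pancreas of Rag-/- adults 1 month after infection with an adenovirus named M3, about 5000 cells each, and their label states that 22% of the cells were insulin-positive. The non-islet samples were about 10000 cells each of the pancreatic tissue left once islets had been removed from animals with a Pdx-GFP transgene. Whole islets picked from Pdx-GFP transgenic adults made up the other 3 arrays, which entered the fit and are otherwise set aside here. The labels do not spell out M3. Published reports of this method describe a mix of viruses for Neurog3, Pdx1 and Mafa.

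The labels give no untreated Rag-/- pancreas and no sorted non-islet cells, so virus, sort, mouse line and cell number cannot be told apart from the group. Sex may be confounded with the group as well, since 3 of 3 induced arrays and 0 of 3 non-islet arrays had Eif2s3y and Kdm5d above background. These are Y-linked genes, picked after looking at their values, and dim transcripts were harder to see on the non-islet arrays. The labels do not say whether the 3 samples of a group came from separate animals, so every p-value rests on a spread between samples that could be technical. In such bulk samples, fewer cells of a type and less RNA per cell cannot be told apart.

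The exocrine pancreas is built of acinar cells, which make digestive enzymes under a transcription factor complex of PTF1A and RBPJL, and of ducts that carry the juice to the gut. Islet cells store hormones in dense-core granules, whose cargo is cut to size by convertases and trimmed by carboxypeptidase E, and they release them when ATP-sensitive potassium channels close and calcium enters. Endocrine identity rests on factors such as PDX1, NKX6-1, NKX2-2, NEUROD1 and INSM1, and NEUROG3 starts that programme in the embryo.

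The non-islet arrays were dominated by a few enzyme probes. The deposited intensities had a mean of 74.2 on each array, but the 50 brightest probes held 13.2% ± 0.184 of the signal on induced arrays and 44.1% ± 1.90 on non-islet arrays (SD, n = 3 each). The 29 measured acinar enzyme and secretory genes alone took 5.72% ± 0.0426 of the signal of induced cells and 27.8% ± 1.25 of that of non-islet cells. The noise SD, estimated from values below 0, was 1.52 ± 0.0417 on induced arrays and 4.55 ± 0.234 on non-islet arrays, and 13592 ± 108 against 9544 ± 365 of 24613 probes lay above background. A dim transcript was therefore harder to see in non-islet cells. Across probes the correlation of log2 signals averaged 0.995 between induced arrays, 0.978 between non-islet arrays and 0.737 between the groups.

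**Figure D1:**
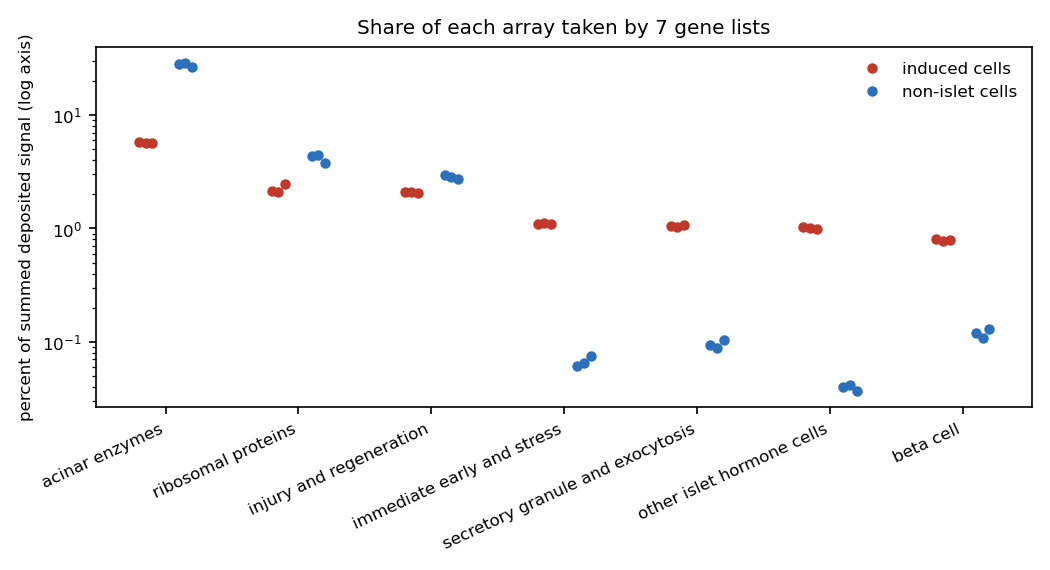
Share of the summed deposited signal of each array, in percent on a log axis, held by 7 gene lists, with induced arrays in red left of non-islet arrays in blue and 1 point per array. Acinar enzymes held 5.72% of induced and 27.8% of non-islet signal, while the immediate early list held 1.10% and 0.0671%.

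Because such a share pulls down every other gene when arrays are set to the same mean, each result was taken under quantile normalization, under a common median and as deposited. A gene is said to have risen or fallen where limma's adjusted p was under 0.05 in the same direction under all 3 scalings. The last 2 differ little, since the common median multiplied the deposited values by 1.10 on induced arrays and 1.12 on non-islet arrays on average. Signals below are quantile-normalized unless named otherwise, and log2 differences are induced minus non-islet on the scale log2(signal + 12), which understates the change of dim genes. Of 9937 measured genes, 4043 (40.7%) were higher and 3654 (36.8%) lower under quantile normalization, 5903 (59.4%) and 2265 (22.8%) under a common median, and 5897 (59.3%) and 2204 (22.2%) as deposited. Under all 3 scalings 4020 genes (40.5%) rose and 2182 (22%) fell, while 671 (6.75%) were called in opposite directions by quantile and deposited values. The median gene stood at 0.07 under quantile normalization, at 0.33 under a common median and at 0.32 as deposited, so list medians are given relative to the median of all genes under the same scaling.

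**Figure D2:**
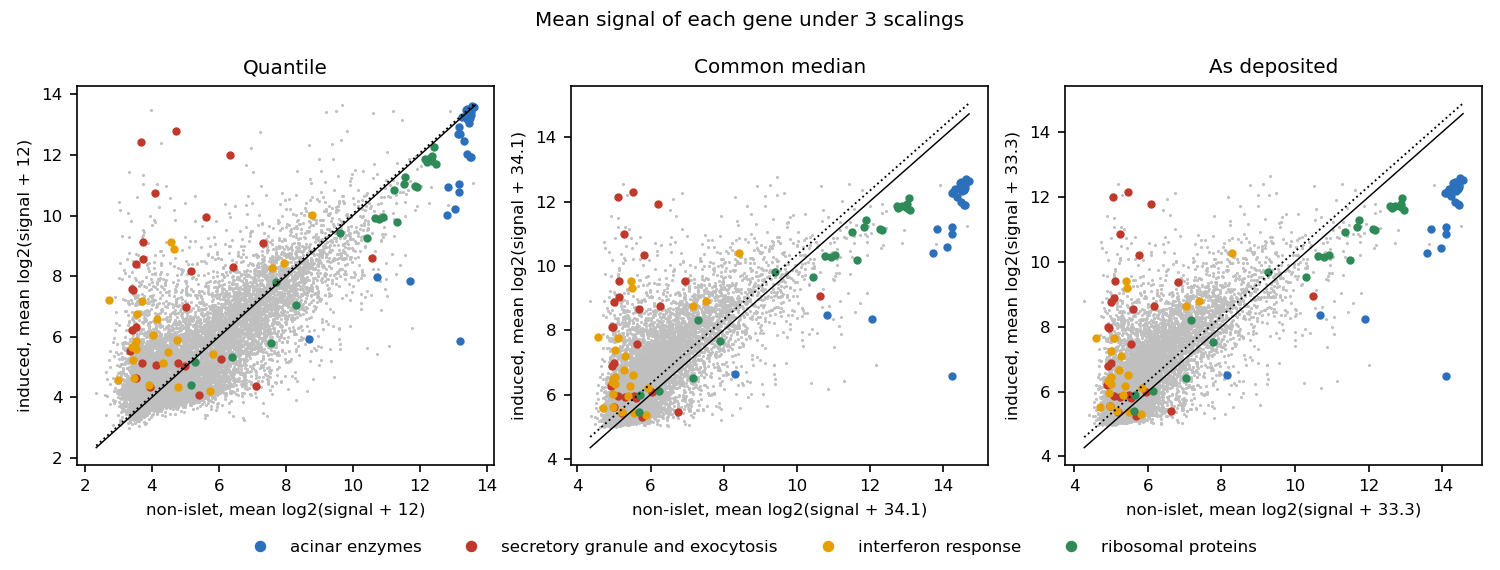
Mean log2 signal of every measured gene in induced cells (vertical axis) against non-islet cells (horizontal axis) under quantile, common median and deposited scaling, with 4 lists coloured. The solid line is equality and the dotted line is shifted by the median gene (0.07, 0.33 and 0.32). Acinar enzymes lie near the line under quantile normalization and below it under both other scalings.

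A harsher scaling, to equal noise SD, moved the median gene to 1.17 and left 7978 genes (80.3%) higher and 415 (4.18%) lower. A scaling to the median of probes above background on all 9 arrays, added after seeing the data, moved it to 0.01 and gave 3946 higher (39.7%) and 3868 lower (38.9%). Under all 5 scalings 3552 genes (35.7%) were higher and 399 (4.02%) lower. Most rises thus held under each scaling tried and most falls did not, but this contrast depends on the scalings chosen. Equal noise scaling multiplied the deposited values by 1.76 on induced arrays and 0.588 on non-islet arrays on average. It could thus remove falls but hardly rises. Added to the first 3 scalings, it left 4020 genes higher and 399 lower. The median of probes above background went the other way, with mean factors of 0.814 and 1.62. Among genes, 1955 were above background on 3 induced arrays and no non-islet array, 59 the other way round, and 5902 on all 6 arrays. A gene measured only in 1 group was bound to differ. Each list count over all measured members thus has to be read against the 40.5% and 22% of all genes. No list count is support for a list by itself. The gene lists hold 527 different measured genes, 303 of them above background on all 6 arrays and 123 on the induced arrays alone. Of the 303, 75 rose and 125 fell.

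**Figure D3:**
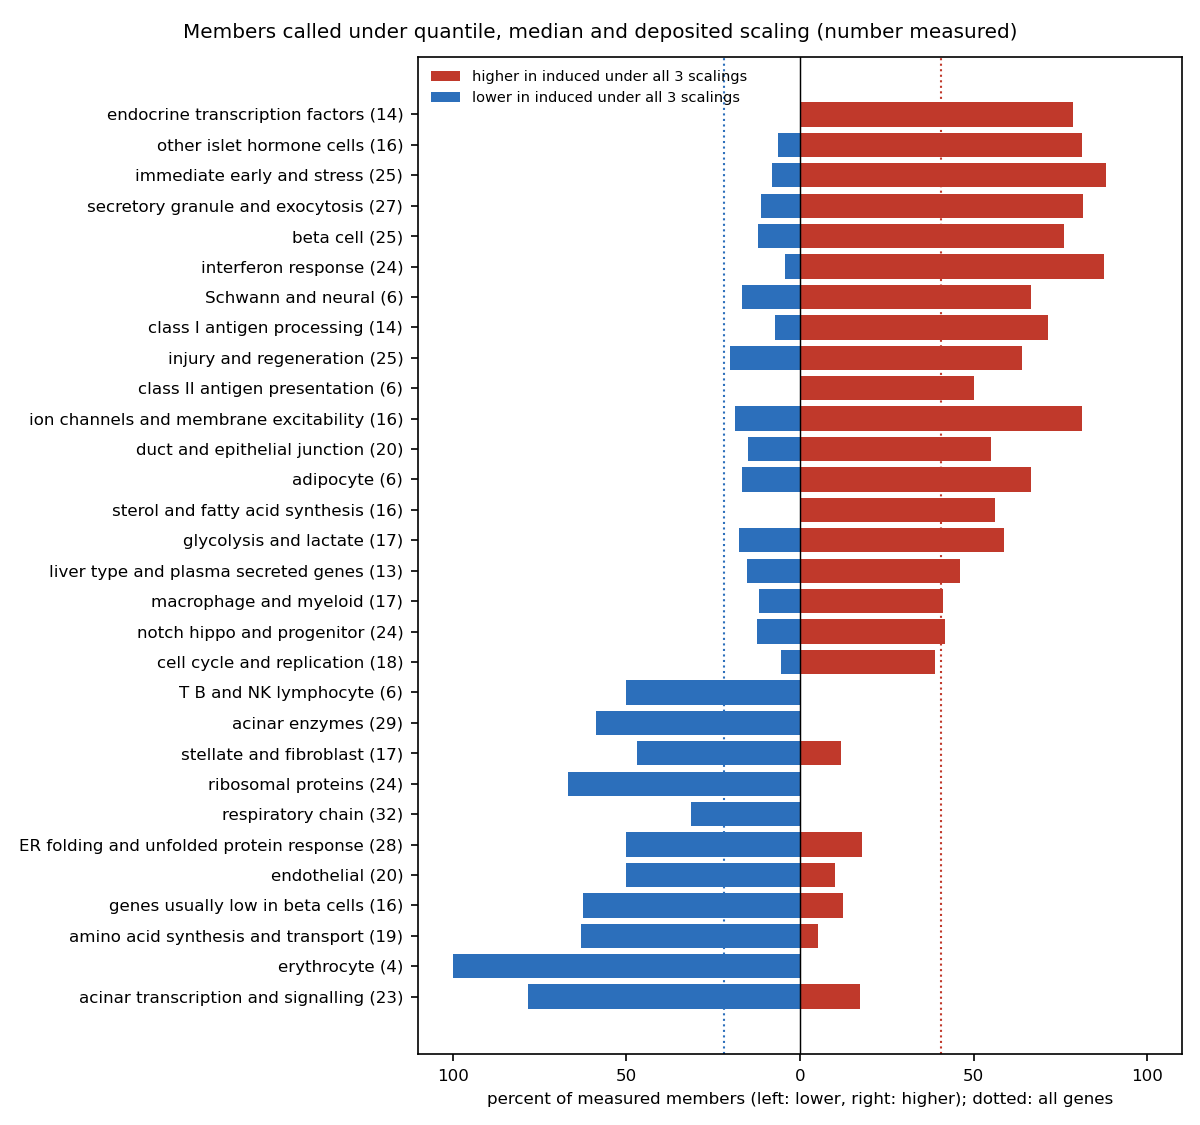
Percent of the measured members of 30 gene lists that rose (red, right) or fell (blue, left) under all 3 scalings, with the number measured after each name and the lists in order of their median under quantile normalization. Dotted lines mark the shares of all genes, 40.5% and 22%. Endocrine, immediate early and interferon lists lie at the top, and acinar regulators, blood and amino acid genes at the bottom.

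Genes above background on all 6 arrays gave smaller tallies. A fit of probes that met this condition called 1667 genes higher and 1698 lower under all 3 scalings, out of 5902. The tallies below, taken from the main fit, are to be read against these counts and not against the shares of all genes. Of the endocrine lists, 6 beta cell genes met this condition, of which 3 rose and 2 fell, and 2 endocrine factors, neither of which was called. Of 12 such granule genes 7 rose and 3 fell, and of 4 channel genes 2 rose and 2 fell. Of 15 immediate early genes 13 rose and 2 fell, of 8 interferon response genes 5 rose and 1 fell, and of 9 class I genes 5 rose and 1 fell. All 29 acinar enzyme genes met it, and 17 of them fell. Of 21 acinar regulators 18 fell and 2 rose, and of 23 ER genes 12 fell and 3 rose.

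Islet hormones and the machinery that packs them were among the largest gains. Ins2, which encodes insulin 2, had signals of 9127, 7154 and 5205.5 in the induced cells, against 164, 163 and 94.9 in the non-islet cells, a log2 difference of 5.55 (SE 0.22, limma adjusted p = 1.74e-09). All induced arrays lay far above all non-islet arrays, and Ins2 was also above background on the non-islet arrays. Iapp, the amyloid peptide stored with insulin, averaged 1520 ± 174 and 11.6 ± 4.66 (SD, n = 3 each) in induced and non-islet cells, a difference of 6.03. Of 25 measured genes of the beta cell list of 30, 19 rose and 3 fell (40.5% and 22% of all genes), and the list median lay 2.02 above that of all genes, with a range of 1.29 to 2.02 over the 5 scalings.

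Hormones of other islet cells rose with insulin. Pyy, which encodes peptide YY, had signals of 11764, 11617 and 10722 in induced cells, against 5.77, 2.37 and 3.25 in non-islet cells, where it was above background on no array. That is at least 539-fold higher, or at least 133-fold in the deposited values, when the induced mean is set against the background limit of the non-islet arrays. Sst, for somatostatin, was at least 258-fold higher (105-fold as deposited) and Gcg, for glucagon, at least 100-fold (53.2-fold), each above background on 3 of 3 induced and 0 of 3 non-islet arrays. Ppy, the pancreatic polypeptide gene, averaged 221 ± 8.82 in induced cells and 7.05 ± 5.80 in non-islet cells. Gast and Cck, gut hormone genes, were at least 15.9-fold and 10.3-fold higher (10.5-fold and 7.03-fold as deposited). Of 16 measured genes in this list 13 rose and 1, the receptor gene Gpr119, fell (-0.48, and 0.02 under equal noise scaling). Gpr119 was above background on 1 induced and 1 non-islet array, at 2.87 ± 0.636 and 8.78 ± 2.84. These lie near the background limits, 2.60 to 2.79 on induced and 8.04 to 10.1 on non-islet arrays, so its fall says little. Ghrl, for ghrelin, was not called (4.89 and 6.51 in induced and non-islet cells, log2 difference -0.13).

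Of the granule and exocytosis list 22 of 27 measured genes rose and 3 fell, and its median lay 2.11 above all genes (1.32 to 2.11 over the scalings). Chgb, a granin that helps form the granule core, had 4873, 4809 and 7063 in induced cells, against 2.44, 2.60 and -1.99 in non-islet cells, at least 261-fold higher (101-fold as deposited). Chga, the related granin, averaged 7206 ± 1896 and 15.3 ± 8.76 in induced and non-islet cells. Cpe, the carboxypeptidase that trims prohormones, had 4269, 4585 and 3403 against 74.2, 75.0 and 57.3 in the same order (difference 5.66, SE 0.16, limma adjusted p = 1.44e-10). It was the largest rise among genes above background on all 6 arrays. Scg5, the chaperone of the convertase PC2, rose by 4.37 and Scg2, another granin, was at least 26.5-fold higher (16.6-fold as deposited). Genes of docking and release varied. Cadps, a priming factor of dense-core vesicles, was at least 8.86-fold higher, while Vamp2 stood at 3.02, Rab27a at 1.77 and Stx1a at 1.87. Rab3a was not called under quantile normalization (0.03) and higher as deposited (0.26). Of the cargo and processing genes, Scg3, another granin, rose by 0.36 and Pam, which amidates peptides, was at least 1.60-fold higher. Pcsk1, a proinsulin convertase, was low, at 11.1 ± 1.25 in induced cells and -1.10 ± 1.36 in non-islet cells. The 3 that fell were Rab3d, a Rab of acinar zymogen granules, at -1.94, Snap25, of the release machinery, at -1.30 and Ptprn2, a granule membrane protein, at -2.72.

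The beta cell list also covers glucose handling and zinc. G6pc2, an islet glucose-6-phosphatase, had 886, 849 and 903 in induced cells, against 4.72, 3.51 and 7.66 in non-islet cells, at least 42.2-fold higher (25.9-fold as deposited). Slc30a8, the zinc transporter of the insulin granule, was at least 13.3-fold higher and Npy, a neuropeptide gene, at least 29.8-fold (18.6-fold as deposited). Slc2a2, the glucose transporter GLUT2, was modest, at 50.8 ± 3.99 in induced cells and 8.71 ± 2.87 in non-islet cells (difference 1.61). Ucn3, which encodes a late beta cell peptide, exceeded background on 1 induced array and no non-islet array and was not called (difference 0.13). Glp1r, the incretin receptor, fell by 0.50 (0.08 under equal noise scaling). Its signals of 3.94 ± 1.49 in induced and 10.6 ± 2.48 in non-islet cells lie near the background limits, and it exceeded them on 2 arrays of each group. Slc39a5, a zinc importer of acinar cells as well, fell to 13.8 ± 2.43 in induced cells, against 682 ± 21.9 in non-islet cells (-4.75). Ins1, Mafa and Pcsk2 had no probe on the array.

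Of 14 measured endocrine transcription factors 11 rose and none fell, with all 11 outside the 2 above background on all 6 arrays. Pdx1, the master regulator of pancreas and beta cell, had 2085, 1997 and 1926 in induced cells, against 5.88, 8.10 and 14.7 in non-islet cells, a difference of 6.57 (SE 0.13, limma adjusted p = 2.19e-11). Every induced array lay far above every non-islet array. Whether the Pdx1 probe also reads a transcript of the virus was not tested. Endocrine factors outside the published mix rose too. Insm1 had 729, 720 and 731 in induced cells, against 3.32, 0.05 and 1.20 in non-islet cells, at least 35.0-fold higher (21.7-fold as deposited). Rfx6 was at least 20.3-fold (13.1-fold as deposited), Nkx2-2 at least 16.4-fold (10.7-fold), Nkx6-1 at least 11.7-fold, Myt1 at least 11.3-fold and Isl1 at least 6.82-fold higher. Neurod1, a target of NEUROG3, had 215, 194 and 226 in induced cells, against 11.2, 20.1 and 7.83 in non-islet cells (3.18).

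Neurog3 itself was above background on none of the 6 arrays. Its signals were 0, 1.59 and 2.15 in induced cells and -2.96, -1.85 and 2.26 in non-islet cells, with overlapping groups (0.27, limma adjusted p = 0.119). Of the 3 scalings the common median alone called it, at 0.19. Foxa2 and Hnf4a, factors shared by endocrine and exocrine cells, were called lower under quantile normalization (-0.89 and -0.91) and not called as deposited (0.03 and 0.13) or under a common median, and under equal noise scaling they stood at 1.05 and 1.38.

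Channels and pumps that set membrane potential rose in 13 of 16 measured cases and fell in 3 (40.5% and 22% of all genes). The list median lay 0.76 above all genes, with a range of 0.22 to 0.76 over the 5 scalings. Abcc8, the sulfonylurea receptor of the ATP-sensitive channel, was at least 33.6-fold higher (20.8-fold as deposited), while its partner Kcnj11 rose by 0.54, with 11.4 ± 0.882 and 4.34 ± 3.60 in induced and non-islet cells. Trpm5, a calcium-activated cation channel, was at least 4.48-fold higher and Atp1b1, a sodium pump subunit, rose by 3.64. Of the calcium channel subunits, Cacna2d1 was at least 3.52-fold higher. The brightest Cacna1c probe was at least 2.89-fold higher, while the gene's other measured probe was not called (-0.21). Kcnq1, Fxyd2 and Fxyd6 fell (-1.94, -0.98 and -1.70), though under equal noise scaling Kcnq1 and Fxyd6 stood at 0.44 and 0.08.

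**Figure D4:**
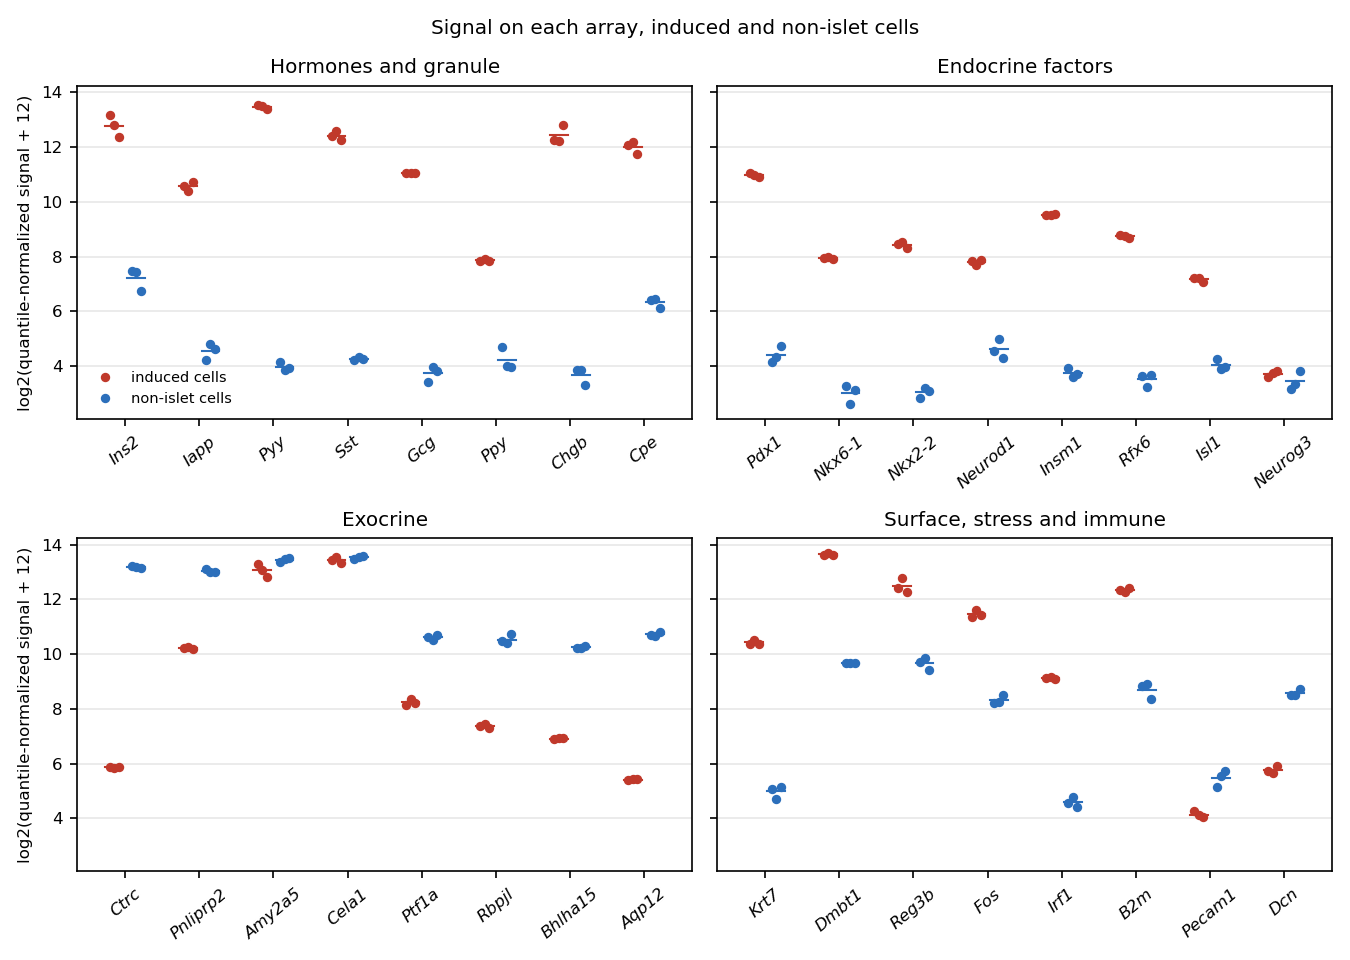
Signal of 32 genes on each array as log2(quantile-normalized signal + 12), induced cells in red left of non-islet cells in blue, with 1 point per array and a line at the group mean. Hormone, granule and endocrine factor genes other than Neurog3 separate fully, Ctrc and Aqp12 separate the other way, and Cela1 overlaps.

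Digestive enzymes are where the scaling decides most. As deposited, all 29 measured enzyme and secretory genes were lower in induced cells, with a list median 2.49 below that of all genes. Under quantile normalization 17 fell and 12 were not called, and the median was 0.52 below. Cela1, an elastase, shows the difference. Its deposited values were 5338, 5772 and 4824 in induced cells, against 22586, 23542 and 21586 in non-islet cells, a difference of -2.08 (limma adjusted p = 6.76e-11). After quantile normalization they were 11109, 11844 and 10262 in induced cells and 11463, 11844 and 12143 in non-islet cells, overlapping groups with a difference of -0.10 (adjusted p = 0.334). Cela1 was among the brightest genes on arrays of both groups, and quantile normalization assigns such ranks the same values. Cpa1, a carboxypeptidase, and Ctrb1, a chymotrypsinogen, behaved likewise, at 0.13 and 0.06 after quantile normalization and -1.88 and -1.91 as deposited. Neither Cpa1 nor Ctrb1 was called under quantile normalization, and both were called lower under every other scaling.

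Other enzyme genes fell under each of the 5 scalings, 17 in all. Ctrc, chymotrypsin C, which controls trypsinogen activation, had 46.0, 45.5 and 46.5 in induced cells, against 9468, 9309.5 and 9127 in non-islet cells (-7.33, SE 0.09, limma adjusted p = 7.31e-13). That was the largest fall of any gene above background on all 6 arrays, and it ranged from -6.46 to -8.24 over the scalings. Pnliprp2, a lipase-related protein, fell by 2.82 and Cuzd1, a zymogen granule membrane protein, by 2.78. Pla2g1b, a phospholipase, fell by 2.38 and Prss2, a trypsinogen, to 2088 ± 260 in induced cells, against 9166 ± 708 in non-islet cells. Amy2a5, the pancreatic amylase, fell by 0.39 under quantile normalization and by 2.20 as deposited. The members thus differed greatly among themselves. As deposited, Ctrc stood at -7.64, Erp27, an ER protein of the pancreas, at -3.67 and the other 27 less far from 0. Enzyme genes have near-identical copies, and a probe may read several of them.

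Short stretches upstream of the enzyme genes are shown because PTF1, the acinar complex, binds an E-box (CANNTG) joined to TTTCCC. These boxes 4 bases apart, searched on both strands over 250 bases before to 50 after each start, were found in 3 of the 23 enzyme genes with a promoter in the RefSeq table (GRCm38.p6) and in 0.104% of 27025 genes with one. The same boxes 15 bases apart were found in 2 of the 23 and in 0.196% of all. In the lines below the capitals mark the match from the E-box to the TTTCCC box or its reverse complement. All 3 genes with the short spacing belong to the 12 that were not called under quantile normalization, and the match is a description of these letters alone.
Cela1 chr15:100687999-100688044, minus strand: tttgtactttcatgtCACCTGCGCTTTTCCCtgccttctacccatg
Ctrb1 chr8:111691185-111691230, minus strand: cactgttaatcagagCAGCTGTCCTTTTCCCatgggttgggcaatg
Prss1 chr6:41458809-41458854, plus strand: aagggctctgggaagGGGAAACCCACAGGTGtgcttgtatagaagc

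Most regulators of the acinar programme fell. Of 23 measured transcription and signalling genes 18 fell and 4 rose, and the median was 2.28 below all genes (1.62 to 2.31 below over the scalings). Ptf1a had 271, 313 and 283 in induced cells, against 1565, 1450.4 and 1649.6 in non-islet cells (-2.38, SE 0.10, limma adjusted p = 2.22e-09). Rbpjl, its partner, fell to 153 ± 7.53 in induced cells, against 1474 ± 180 in non-islet cells (-3.17). Bhlha15, also called MIST1, which shapes the secretory cell, fell by 3.34 with both of its other probes falling too. Nr5a2, a nuclear receptor of acinar cells, fell by 3.18, and the gap junction genes Gjb1 and Gjb2 by 3.53 and 2.92. All of these stayed lower under the 5 scalings. Aqp12, an acinar water channel, fell by 5.30, Gamt, of creatine synthesis, by 3.97, and Fgf21, a hormone that acinar cells secrete, by 3.82. The level of Ptf1a in induced cells was still well above background. Gata4 fell by 1.44 under quantile normalization and by 0.33 as deposited, but stood at 0.83 under equal noise scaling. Slc38a5, a glutamine transporter, went the other way, at 11228 ± 459 in induced cells and 2317 ± 190 in non-islet cells (2.27), and Gata6 rose by 0.36.

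Genes that supply amino acids to enzyme synthesis fell as well. Of 19 measured, 12 fell and 1 rose, with a median 1.51 below all genes (1.01 to 1.51 below). Psat1, of serine synthesis, had 28.2, 20.7 and 25.4 in induced cells, against 632, 632 and 645 in non-islet cells (-4.14, SE 0.09, limma adjusted p = 3.53e-11). Cth, which makes cysteine, was above background on 0 of 3 induced and 3 of 3 non-islet arrays, at least 10.9-fold lower (3.14-fold as deposited). Cbs, the preceding enzyme, fell by 2.82, Phgdh, the first enzyme of serine synthesis, by 2.60, and Asns, asparagine synthetase, by 2.57. Each of these fell under the 5 scalings. Mthfd2, of mitochondrial folate, fell by 2.42 and was not called under equal noise scaling (-0.22). The transfer RNA synthetase genes Gars and Aars changed side or call with the scaling, at -0.32 and 0.03 under quantile normalization and 0.15 and 0.94 as deposited.

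In the endoplasmic reticulum (ER), the list split. Of 28 measured folding and unfolded protein response genes 14 fell and 5 rose, with a median 0.76 below all genes (0.18 to 0.76 below). As deposited 14 were called lower and 11 higher, and under equal noise scaling 3 lower and 21 higher. Sdf2l1, an ER chaperone cofactor, had 39.9, 35.8 and 29.2 in induced cells, against 419, 429 and 415 in non-islet cells (-3.21, SE 0.10, limma adjusted p = 3.01e-10). Edem1, of ER-associated degradation, fell by 3.00 and its pathway partner Sel1l by 1.89. Hsp90b1, the ER paralog of HSP90, rose instead, at 2656 ± 244 in induced cells and 999 ± 33.3 in non-islet cells (1.40). Ddit3, the stress factor CHOP, rose by 2.62, with 117 ± 11.7 and 9.04 ± 2.99 in induced and non-islet cells. Hspa5, the chaperone BiP, had 214, 190.3 and 236 against 256, 346 and 427 in the same order, called lower under quantile normalization (-0.63) and not called as deposited (0.28). Xbp1, the factor that expands the secretory ER, fell by 0.59, though it stood at 0.81 under equal noise scaling.

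Promoters of ER genes that moved in opposite directions hold the same letters. The ER stress element, CCAAT and CCACG 9 bases apart on either strand, was found in 7 of the 24 ER genes with a promoter and in 0.137% of all 27025. Of the 7, 4 fell, 1 rose and 2 were not called. Creld2, a secreted ER stress protein, fell (-1.72, but 0.47 under equal noise scaling) and Hsp90b1 rose (1.40), and their matches, in capitals, lie 126 to 108 and 107 to 89 bases before the start on the strand opposite to the gene. Canx, calnexin, fell by 1.37, with a dim probe at 3.82 in induced cells and 29.0 in non-islet cells. The Canx match lies on the strand of the gene.
Creld2 chr15:88819505-88819553, plus strand: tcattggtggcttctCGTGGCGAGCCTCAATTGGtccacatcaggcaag
Hsp90b1 chr10:86705518-86705566, minus strand: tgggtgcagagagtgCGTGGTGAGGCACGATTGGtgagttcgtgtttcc
Canx chr11:50325785-50325833, minus strand: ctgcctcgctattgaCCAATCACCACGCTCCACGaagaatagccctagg

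Duct and epithelial junction genes were mixed, with 11 of 20 measured rising and 3 falling (40.5% and 22% of all genes). Krt7, a keratin of ducts, had 1325, 1456 and 1310.2 in induced cells, against 22.0, 14.2 and 23.7 in non-islet cells (5.44, SE 0.12, limma adjusted p = 3.16e-11). Cldn4, a tight junction claudin, rose by 4.14, Krt8, a keratin of simple epithelia, by 2.47 and Ezr, the cytoskeletal linker ezrin, by 2.46. Krt19, the usual duct marker, was not called under quantile normalization (0.32) and higher as deposited (0.22), with 12.5 ± 2.44 in induced cells and 7.91 ± 4.87 in non-islet cells. Sox9, the duct and progenitor factor, averaged 194 ± 11.8 and 330 ± 17.5 in the same order, lower under quantile normalization (-0.73) and higher as deposited (0.21). The 3 that fell were Cldn10 (-2.29), Aqp1 (-1.47) and Muc1 (-0.95, with both of its other probes falling too). Under equal noise scaling Aqp1 and Muc1 stood at 0.02 and 1.22. The 4 duct markers Krt19, Krt7, Sox9 and Cftr summed to 1511 to 1669 in induced cells and 339 to 373 in non-islet cells, most of it from Krt7 in induced cells and Sox9 in non-islet cells.

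Of 24 Notch, Hippo and progenitor genes measured, 10 rose and 3 fell, near the shares of all genes (40.5% and 22%). The Notch target Hes1 rose by 1.67, and Prox1, a factor of liver and pancreas development, was at least 7.78-fold higher. Ankrd1, Ccn1 and Ccn2, targets of the Hippo effector YAP, were at least 5.35-fold, 3.16-fold and 3.02-fold higher. Yap1 itself fell to 7.55 ± 0.288 in induced cells, against 50.2 ± 5.93 in non-islet cells (-1.67), and Tead2, its DNA-binding partner, by 3.66.

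Injury and regeneration genes of the pancreas rose in 16 of 25 measured cases and fell in 5. Dmbt1, a secreted scavenger receptor, had 12646, 13076 and 12646 in induced cells, against 802, 806 and 798 in non-islet cells (3.98, SE 0.08, limma adjusted p = 1.95e-11), and in the deposited values it was the brightest gene of 1 induced array at 6509. Reg3b, a regenerating-family lectin induced in pancreatitis, had 5470.3, 7063 and 4956 against 816, 909 and 676 in the same order (2.84). Lcn2, an acute-phase protein, was at least 19.0-fold higher (12.3-fold as deposited) and the neutrophil chemokine Cxcl1 at least 21.8-fold (13.9-fold). The family did not move as a whole, since Reg3d fell by 1.36 (0.34 under equal noise scaling), Tff2, a trefoil peptide, by 1.57, and Reg1 was not called under quantile normalization (-0.02) and lower as deposited (-1.94).

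Immediate early and stress genes, which are switched on within minutes by growth factors or tissue dissociation, rose in 22 of 25 measured cases, and the list median was 2.78 above all genes (1.90 to 3.26). Fosb had 865, 871 and 931 in induced cells, against 0.73, -0.97 and -3.92 in non-islet cells, at least 42.7-fold higher (26.2-fold as deposited). Atf3, a stress factor, was at least 30.7-fold higher (19.1-fold as deposited), Dusp1, a phosphatase that ends kinase signals, rose by 4.85, and Fos by 3.13. Ier2 and Egr3 fell (-1.34 and -0.62), with 0.08 and 0.14 under equal noise scaling. The induced cells were sorted and the labels name no sort for the non-islet cells, and the part of the sort in these values was not tested. The list took 1.10% of the signal of induced arrays and 0.0671% of that of non-islet arrays.

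**Figure D5:**
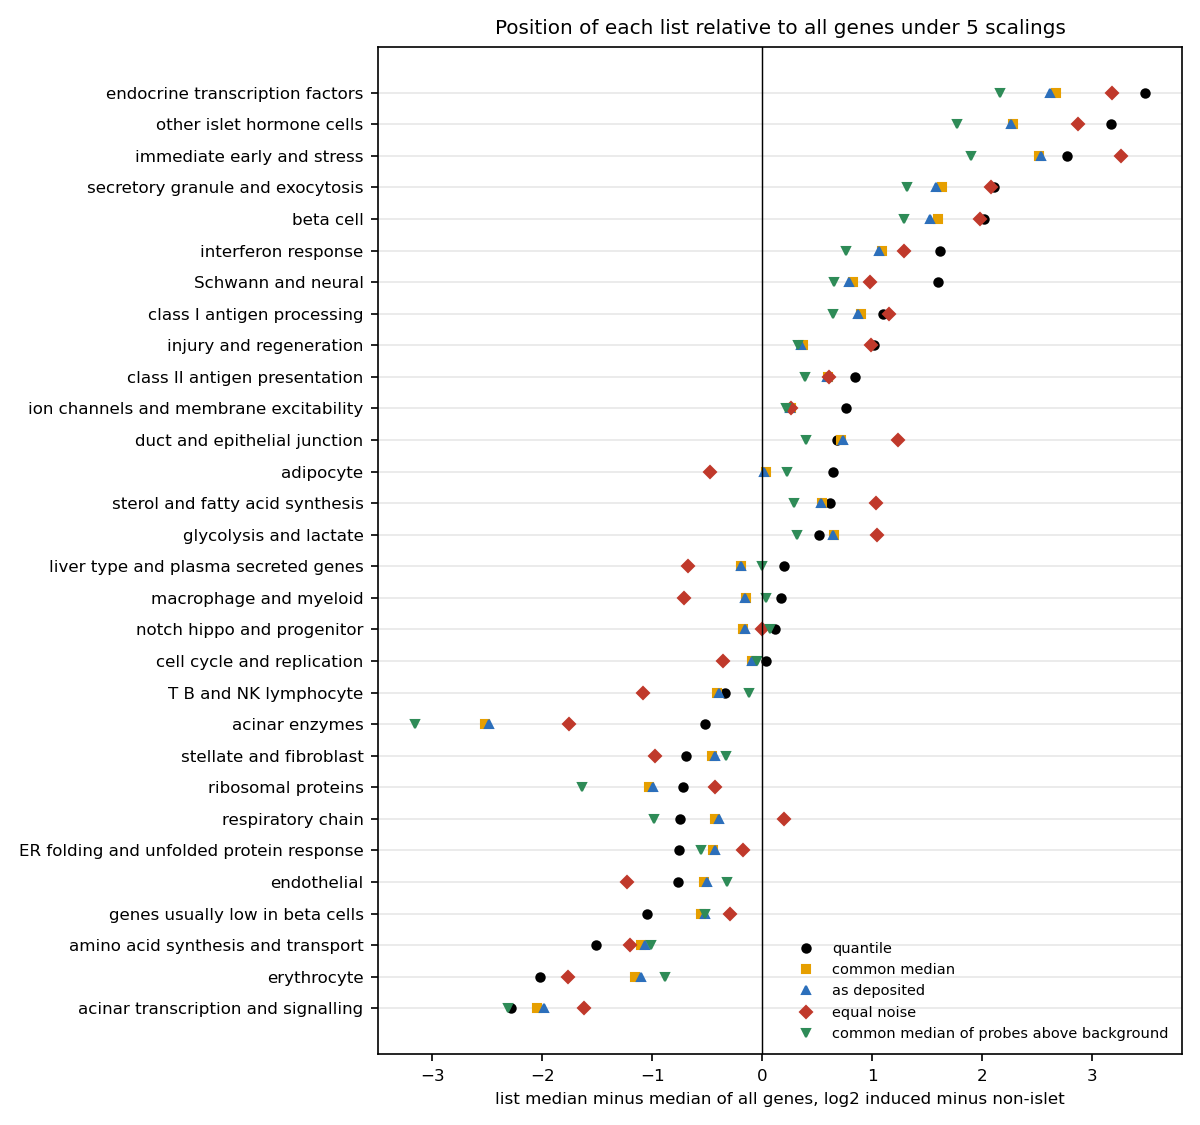
Median log2 difference of each list, induced minus non-islet, less the median of all genes under the same scaling, for 5 scalings. Of the 30 lists 14 lie above 0 and 10 below 0 under all 5, and 6 change side. Acinar enzymes run from 0.52 below all genes under quantile normalization to 3.16 below under the common median of probes above background.

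Interferon response genes rose in 21 of 24 measured cases, with 1 falling and a median 1.62 above all genes (0.77 to 1.62). Irf1, a factor induced by interferon, had 552, 556 and 527 in induced cells, against 11.8, 15.3 and 9.07 in non-islet cells (4.54, SE 0.12, limma adjusted p = 8.92e-11), and its 3 other probes rose too. Rsad2, the antiviral protein viperin, rose by 4.23. Irf9, a subunit of the interferon-activated factor ISGF3, was at least 6.87-fold higher. Mx1, a viral resistance GTPase, was dim, at 13.2 ± 1.51 in induced cells and -0.884 ± 0.853 in non-islet cells. Xaf1 fell by 1.52. Ifit3 and Bst2, called lower under quantile normalization (-0.42 and -0.39), stood at -0.09 and 0.28 as deposited, where Bst2 was called higher. The induced cells came from animals given an adenovirus and the labels name no virus for the non-islet group, and the part of infection was not tested.

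Class I antigen presentation moved in the same direction in 10 of 14 measured cases. B2m, the light chain of class I molecules, had 5145, 4873 and 5470.3 in induced cells, against 442, 464 and 313 in non-islet cells (3.65, SE 0.16, limma adjusted p = 3.44e-09). H2-T23, a nonclassical class I gene, averaged 914 ± 68.0 and 14.3 ± 4.10 in the same order (5.15) and H2-K1, a classical one, rose by 2.67. Psme1, a proteasome activator subunit, rose by 3.09 and Psmb9, an immunoproteasome subunit, was at least 5.52-fold higher. Psmb10, another immunoproteasome subunit, fell to 180.4 ± 4.87 in induced cells, against 1975 ± 204 in non-islet cells (-3.36), with its other probe falling too.

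The interferon-stimulated response element binds ISGF3 and IRF factors, and its core was sought as GAAA and GAAA 2 bases apart on both strands. It was found in 10 of the 19 interferon response genes with a promoter, in 4 of the 12 class I genes with one, and in 3.99% of all 27025. Of these 14 genes 12 rose under all 5 scalings, while Ifit3 and Bst2 were lower under quantile normalization. Under all 5, 35.7% of all genes rose, as did 20 of 24 measured interferon response genes and 10 of 14 class I genes. The match is a description of these letters alone. The stretches below belong to the pair in each list with the largest log2 differences, and the capitals mark the core or its reverse complement.
Rsad2 chr12:26456548-26456587, minus strand: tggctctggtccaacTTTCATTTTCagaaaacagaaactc
Igtp chr11:58199507-58199546, plus strand: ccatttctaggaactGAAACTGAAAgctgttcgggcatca
H2-T23 chr17:36032801-36032840, minus strand: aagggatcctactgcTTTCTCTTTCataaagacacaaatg
B2m chr2:122147533-122147572, plus strand: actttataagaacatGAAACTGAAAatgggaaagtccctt

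The C/EBP-ATF element TGATGNAA of the amino acid response was in 4 of 16 amino acid genes with a promoter and in 4.51% of all, and the match of Asns, which fell by 2.57, lies 23 to 16 bases before its start. The RE1 element is bound by REST, a repressor of neural genes, and its left arm TTCAGCACC was in 3 of 20 granule genes and in 0.433% of all. No 2 of the 6 motifs overlapped in the 127 promoter windows of these lists.

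Endothelial, fibroblast and red cell genes fell more often than they rose under the 3 scalings (22% and 40.5% of all genes). The median of each list lay below that of all genes under all 5 scalings. Of 20 endothelial genes 10 fell and 2 rose, with a median 0.77 below all genes (0.32 to 1.23 below). Emcn, endomucin, had 5.22, 5.39 and 6.43 in induced cells, against 86.1, 99.7 and 101 in non-islet cells (-2.61), and Flt1, a VEGF receptor, fell by 2.56. Klf2 rose by 4.53 and is an immediate early gene besides an endothelial one. Of 17 stellate and fibroblast genes 8 fell and 2 rose, with a median 0.69 below all genes (0.33 to 0.97 below). Under equal noise scaling 1 was lower and 9 higher, where 4.18% of all genes were lower and 80.3% higher. Dcn, the matrix proteoglycan decorin, fell by 2.81, while Col3a1 was not called under quantile normalization (0.65) and higher as deposited (0.35). Collagens Col4a1, Col4a2 and Col6a1 fell (-1.26, -2.03 and -1.58), but stood at 0.65, 0.03 and 0.20 under equal noise scaling. All 4 red cell genes measured fell, among them the globin Hba-a1 at 6.60 ± 3.34 in induced cells and 385 ± 70.4 in non-islet cells.

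White cell genes gave no single direction. Of 17 macrophage and myeloid genes 7 rose, near the 40.5% of all genes, and 2 fell. Of the 3 above background on all 6 arrays none rose and 1 fell. Cd14 was at least 3.60-fold and S100a8 at least 1.77-fold higher, while Adgre1, the F4/80 antigen, fell by 0.43 (0.11 under equal noise scaling). Adgre1 was near background, at 4.14 ± 0.661 in induced cells and 10.1 ± 4.50 in non-islet cells, where 2 arrays exceeded it. Of 6 measured lymphocyte genes 3 fell, among them Ms4a1, the B cell antigen CD20, with 7.35 ± 1.17 in induced cells and 47.0 ± 2.86 in non-islet cells. Ms4a1 was above background on all 6 arrays. Cd79a, another B cell gene, was on none and Cd79b on 1 induced array alone, and neither rose or fell. Cd3d, a T cell gene that fell, was above background on 1 non-islet array alone. Rag-/- mice make no mature B or T cells, and the part of the strain in the Ms4a1 value was not tested. Of 6 measured class II genes 3 rose, near the 40.5% of all genes, and none fell. H2-Ab1, H2-Aa and H2-DMa rose (1.36, 1.15 and 1.81), with 48.3 ± 4.84 and 11.4 ± 1.23 for H2-Ab1 in induced and non-islet cells. Cd74, H2-Eb1 and H2-DMb1 were not called under quantile normalization (0.67, 0.40 and -0.14). As deposited, Cd74 and H2-Eb1 were called higher (0.93 and 0.36).

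Of the glycolytic genes 10 of 17 measured rose and 3 fell. Pkm, pyruvate kinase, rose by 2.16 and Aldoa, an aldolase, by 1.57. Gapdh, often taken as a constant gene, had 1012, 1017 and 1019.9 in induced cells, against 572, 598 and 629 in non-islet cells (0.75). Ldha, lactate dehydrogenase A, fell to 182 ± 10.3 in induced cells, against 479 ± 33.1 in non-islet cells (-1.34), and Slc16a3, a lactate carrier, by 2.23. Ldha stood at 1.01 under equal noise scaling. Of 16 sterol and fatty acid genes 9 rose and none fell, led by Acly, which makes cytosolic acetyl-CoA, at 3738 ± 370 in induced cells and 495 ± 30.9 in non-islet cells (2.88), and by Hmgcs1, of sterol synthesis, at 1.60.

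Respiratory chain and ribosomal protein genes had no direction common to the 5 scalings. Under quantile normalization 25 of 32 respiratory genes were called lower and none higher, as deposited 10 lower and 11 higher, and under equal noise none lower and 32 higher. Of 24 ribosomal protein genes 16 fell under all 3 scalings, yet 22 were higher under equal noise. Relative to all genes the ribosomal list stayed below under the 5 scalings (0.72 below under quantile normalization), while the respiratory list changed side (-0.99 to 0.20). Sdhb, a subunit of complex II, averaged 130.5 ± 19.0 in induced cells and 480 ± 12.9 in non-islet cells, at -1.80 under quantile normalization, -0.86 as deposited and 0.54 under equal noise.

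Cell cycle genes did not stand out, with 7 of 18 measured rising and 1 falling. Cdkn1a, the cell cycle inhibitor p21, had 1346, 1159.9 and 1639 in induced cells, against 121, 119 and 109 in non-islet cells (3.43, SE 0.13, limma adjusted p = 1.38e-09). Among genes of liver and plasma 6 of 13 rose, near the 40.5% of all genes, and 2 fell. Their median changed side relative to all genes over the 5 scalings (-0.67 to 0.20). The transport protein gene Trf was at least 6.50-fold higher and Apoa2 stood at 1.52. Genes that beta cells usually keep low fell in 10 of 16 measured cases and rose in 2 (22% and 40.5% of all genes). Under equal noise scaling 2 were lower and 10 higher, where 4.18% of all genes were lower and 80.3% higher. The list median lay below that of all genes under all 5 scalings (0.29 to 1.04 below). Smad3 stood at -2.48, while Mgst1 was at least 3.58-fold higher. For Cxcl12, of the same list, the brightest probe was lower (-1.65, but 0.74 under equal noise scaling) and the other measured probe higher (0.47). Of 6 adipocyte genes 4 rose (40.5% of all genes), among them Lpl, a lipase, at 1.73. The adipocyte median changed side relative to all genes as well (-0.47 to 0.65). Of 6 Schwann and neural genes 4 rose, with Nefm, a neurofilament gene, at least 5.20-fold and Dcx, doublecortin, at least 4.26-fold higher, while the Schwann cell factor Sox10 was above background on none of the 6 arrays.

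Several of the strongest changes lay outside these lists. Bace2, a protease that cleaves the islet protein TMEM27, averaged 1153 ± 60.5 in induced cells and 13.2 ± 2.04 in non-islet cells (5.53), and Prnp, the prion protein gene, 4833 ± 202 and 112 ± 4.06 in the same order (5.29). Entpd3, an ectonucleotidase of the islet surface, rose by 5.37, Lgmn, a lysosomal protease, by 4.33 and Rhob, a small GTPase, by 4.42. Cryba2, a crystallin gene, was at least 132-fold higher (67.3-fold as deposited) and Atp2a3, a calcium pump of the ER, at least 123-fold (64.1-fold). Acot11 was at least 75.0-fold higher by its brightest probe (41.7-fold as deposited), but its other 2 measured probes were not called. Among the falls, Hamp2, a hepcidin gene, had 65.8, 60.9 and 70.2 in induced cells, against 3540.0, 3641 and 3210.2 in non-islet cells (-5.48, SE 0.10, limma adjusted p = 1.33e-11). Vtn, vitronectin, fell by 5.39, Sostdc1, a secreted antagonist of BMP and Wnt signals, by 4.78 and Bcat2, which starts the breakdown of branched-chain amino acids, by 4.02. Nxph2 and Hnf4g, a nuclear receptor gene, were at least 11.9-fold and 7.16-fold lower (3.39-fold and 2.27-fold as deposited). By their brightest probes, the genes of this paragraph kept their direction and call under the 5 scalings.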

How the data were processed

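The authors made the deposited intensity values in BeadStudio, per the submitters' processing notes, with version and settings not given in the sources used here. From the values, intensities were linear, background-subtracted and scaled to a common mean, and 25.4% ± 0.699 of them were below 0 on induced arrays and 33.8% ± 1.31 on non-islet arrays. A further deposited table with 36 columns named by slide position was not used. The number of arrays limits the precision.

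Each array's noise SD came from values below 0 mirrored at 0. A probe was above background beyond 1.645 noise SD, and 13927 probes that passed it on every array of 1 or more groups were kept. Of 24613 probes 20984 carried 1 symbol, 1 several and 3628 none, by GEO's platform annotation. The brightest kept probe stood for each of 9937 genes. Values were quantile-normalized and log2-transformed after adding 12, which raised all of them to 1 or more (34.1 and 33.3 for median and deposited scaling). Groups were compared with limma 3.58.1 in R 4.3.3 (a mean for each of the 3 groups, 9 arrays, 6 residual degrees of freedom), two-sided, with Benjamini-Hochberg adjustment over kept probes and a threshold of 0.05. The procedure was tested on simulated data. Same-numbered arrays did not deviate together (r of -0.0069, -0.060 and -0.116).

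Lists, members and motifs were chosen with earlier results of these data known, and the motifs after promoters had been seen. Named genes were a panel of 41 (37 measured), the 15 largest changes each way among called genes above background on all 6 arrays without overlap, the 8 largest bounds each way, and up to 5 called members of each of 30 lists, with uncalled members beside them. Further list members were named after their values were seen. A bound sets the mean of the measured group against the higher of the background limit and the other group's own signal.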

Additional observations from a re-analysis of the deposited data

How the results depend on the processing

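Under quantile normalization 5518 probes were higher and 5090 lower, a split of 52.0% of calls higher, against 71.1% with a common median, 71.6% as deposited, 95.1% at equal noise and 48.9% with the common median of probes above background. The probes called lower came to 3232 with a common median, 3138 as deposited and 574 at equal noise, where 11043 were higher. Probes above background on all 6 arrays gave 2053 higher, and a limit of at least 2-fold gave 2483 higher and 2330 lower. Of the 4020 and 2182 genes called under 3 scalings, the 2-fold limit left 1309 higher and 217 lower. The 6-array filter gave 1667 higher, 1640 of them among the 4020. Equal noise as a further condition, and the 5 scalings together, each left 399 lower. The 6-array filter gave 1698 lower genes. It left out the 1955 genes above background on 3 induced arrays and no non-islet array, and the 59 the other way round. The causes of the moves under the filters and the scalings were not tested. Leaving out each array in turn gave 5198 to 5610 higher and 4793 to 5179 lower probes, and 3766 to 4083 higher and 2021 to 2173 lower genes.

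Replicate numbers did not pair the samples, and with the replicate block 5508 probes were higher and 5072 lower, and 4008 and 2156 genes. An offset of 16 could not be run for the median and deposited scalings, which need 34.1 and 33.3 to bring all values above 0.

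Of the 188 genes that the naming rule picked these changed sign. Cpa1 and Ctrb1 stood at -1.90 and -1.94 with a common median, -1.88 and -1.91 as deposited, -2.86 and -2.89 with the median of probes above background, and -0.30 and -0.33 at equal noise. Sox9 and Lyz2 stood at 0.19 and 0.12 with a common median, 0.21 and 0.12 as deposited, and 1.66 and 1.09 at equal noise. At equal noise alone, falls turned for Gata4 (0.83), Muc1 (1.22), Col4a2 (0.028), Col6a1 (0.20), Col4a1 (0.65), Il2rb (0.079), Chac1 (0.17), Sdhb (0.54), Ndufb9 (0.79), Cyc1 (0.88), Uqcrh (0.63), Ndufb5 (1.12), Hk2 (0.41), Rpl38 (0.54), Rpl32 (0.10), Rpl13a (1.16), Rpl7 (0.78), Rplp0 (0.86), Tyms (0.67), Cxcl12 (0.74), Hbb-bt (0.073) and Tubb3 (0.16). So did falls of genes the text names beside the rule, Kcnq1 (0.44), Fxyd6 (0.08), Xbp1 (0.81), Ldha (1.01), Creld2 (0.47), Reg3d (0.34), Glp1r (0.08), Gpr119 (0.02), Adgre1 (0.11), Aqp1 (0.02), Ier2 (0.08) and Egr3 (0.14). The cause was not tested. Of 46 other probes of called named genes 42 were called the same way, 3 not called and 1 the opposite way. Signal over background limits what can be said of dim genes in non-islet cells.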
